A study of Arabidopsis thaliana with 9 samples.

Results

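The genes described here are 40 nuclear genes of the photosynthetic light reactions, out of 33323 genes in the tables. They were chosen by gene identity, from the annotated names of the light-harvesting antenna proteins and the nuclear-encoded photosystem subunits. No rule on their values was used, but earlier results of these data were known when they were chosen. The antenna holds 18 of them, 4 for photosystem I (LHCA1 to LHCA4) and 14 for photosystem II (LHCB1.1 to LHCB6), and the photosystem subunits number 12 for photosystem I (the PSA genes) and 10 for photosystem II (the PSB genes). RNA was sequenced from whole rosettes of Arabidopsis thaliana, without roots, at 23 days of age. There were 3 libraries for each of 3 genotypes, the wild type Col-0 and the mutants jazQ and jazD. Both mutants lack several JAZ proteins, the repressors of jasmonate signalling. The mutated genes are known from the literature on the lines and not from the labels: 5 in jazQ, which are JAZ10, JAZ9, JAZ4, JAZ3 and JAZ1, and 10 in jazD, which are the same ones and also JAZ13, JAZ7, JAZ6, JAZ5 and JAZ2. The labels give the accession as Col-0 for wild type and jazQ and as Col-0* for jazD, with no word on the asterisk. Plants of all 3 genotypes shared trays at 20 °C, with days of 16 h and nights of 8 h. About 20 plants were pooled for a library, and the labels call the 3 pools of a genotype independent biological replicates.

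Antenna proteins bind chlorophyll in the thylakoid membrane and pass the energy of absorbed light to the reaction centres of the photosystems. Photosystem II takes electrons from water, photosystem I passes them on to ferredoxin, and both are built from chloroplast-encoded cores and subunits encoded in the nucleus. Transcripts of the nuclear antenna and photosystem genes are among the most abundant in leaves and are known to respond together to light, to chloroplast state and to defence signals.

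Libraries held between 15370271 and 20730459 expected counts, and every member gave at least 406 counts in every library. Of the mutated genes, 2 of 5 in jazQ and 5 of 10 in jazD had lower TPM in all 3 mutant libraries than in any wild-type library, JAZ1 among them at 10.5% of wild type in jazQ and 8.77% in jazD. Others gave transcript above wild type, such as JAZ13 in jazD, and a mutation need not remove the transcript, so these genes check the labels only in part. Of 5 root markers, EXPA7 and CASP2 had no counts in any library, and the summed TPM of the list stayed at or below 0.38. A bulk measurement of this kind cannot tell fewer cells of a type from less RNA per cell.

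All 40 genes were lower on average in jazD than in wild type, by small amounts, and most did not pass the test for a single gene. The strongest differences were in the photosystem II antenna, in the minor antenna gene LHCB4.3 (AT2G40100), which stood at 51.9% of its wild-type CPM (counts scaled to library size with edgeR's TMM factors), in LHCB2.3 (AT3G27690) at 68.0% and in LHCB1.4 (AT2G34430) at 73.6%. In edgeR's quasi-likelihood test over 19405 genes, 12 of the 40 members (30%) were called lower at an adjusted p under 0.05, beside 12.5% of all genes tested, and 0 were called higher, beside 13.3%. Libraries did not overlap for 34 of the 40, all 3 of jazD lying below all 3 of wild type, beside 21.2% of all genes. The median log2 fold change of the members was -0.16, with single genes between -0.95 and -0.01. Fitted values stayed below 0 for all 40 under each of the scalings and tools tried, while leaving out wild-type replicate 2 or 3 left 39 below 0 and leaving out jazD replicate 3 left 38.

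The count of 12 depended on single libraries. It was 4 without wild-type replicate 1, 7 without wild-type replicate 2, 7 without jazD replicate 2 and 5 without jazD replicate 3, beside 8.77, 9.93, 9.05 and 9.05% of all genes in those fits. LHCB1.4, LHCB2.3, LHCB4.3 and LHCB5 were called whichever of the 9 libraries was left out and under all 11 other alternatives, and the other 8 calls were lost only by leaving out a library. The count was also higher under other scalings, at 33 with library totals alone (beside 16.3% of all genes), where the median log2 fold change of all genes was -0.05, and at 35 in limma on log2(TPM + 1) (beside 17.1%).

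**Figure D1:**
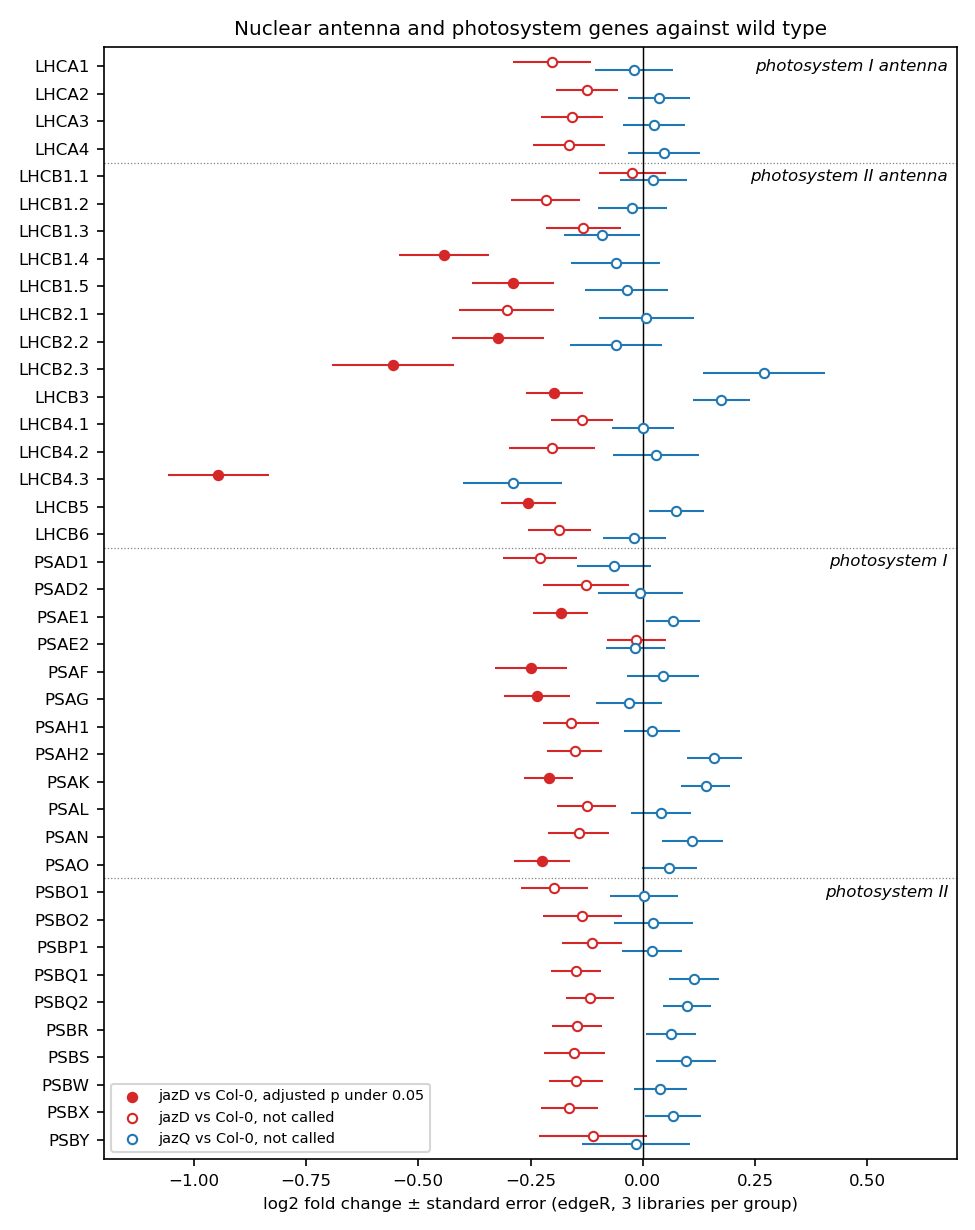
Log2 fold change of each of the 40 genes against wild type (horizontal axis, 3 libraries per group), for jazD in red and jazQ in blue. Bars show the standard error derived from edgeR's F statistic. Filled points passed an adjusted p of 0.05 and open points did not. All 40 jazD points lie left of 0, 12 of them filled, with LHCB4.3 at -0.95, while the jazQ points lie on both sides of 0 and none is filled.

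As a share of all transcripts in the tables, in TPM (RSEM's transcript share, corrected for gene length), the 40 genes together took 18.9, 18.6 and 18.6% in the wild-type libraries, 19.6, 17.9 and 18.8% in jazQ and 15.9, 15.9 and 15.0% in jazD. The jazD libraries were the lowest of the 9, and jazQ lay around wild type. The jazD share was 83.6% of the wild-type share, and 88.1% when read in CPM, which corrects for the composition of the library and not for gene length.

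Summed antenna TPM in jazD was 83.0% of wild type, with 82.6% for the photosystem II antenna and 84.6% for the photosystem I antenna, and the photosystem I and photosystem II subunits stood at 83.1% and 85.8%. The ratio of antenna to photosystem I TPM was 2.72 ± 0.084 in wild type, 2.63 ± 0.096 in jazQ and 2.71 ± 0.143 in jazD (SD, n = 3), and these overlapped. The ratio of photosystem I to photosystem II TPM was 1.12, 1.123 and 1.117 in the wild-type libraries and 1.073, 1.086 and 1.098 in jazD, a small difference in which the 2 genotypes did not overlap, while the jazQ libraries ran from 1.09 to 1.14. These sums are descriptions and were given no test, since the members were chosen with earlier results of the series known.

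**Figure D2:**
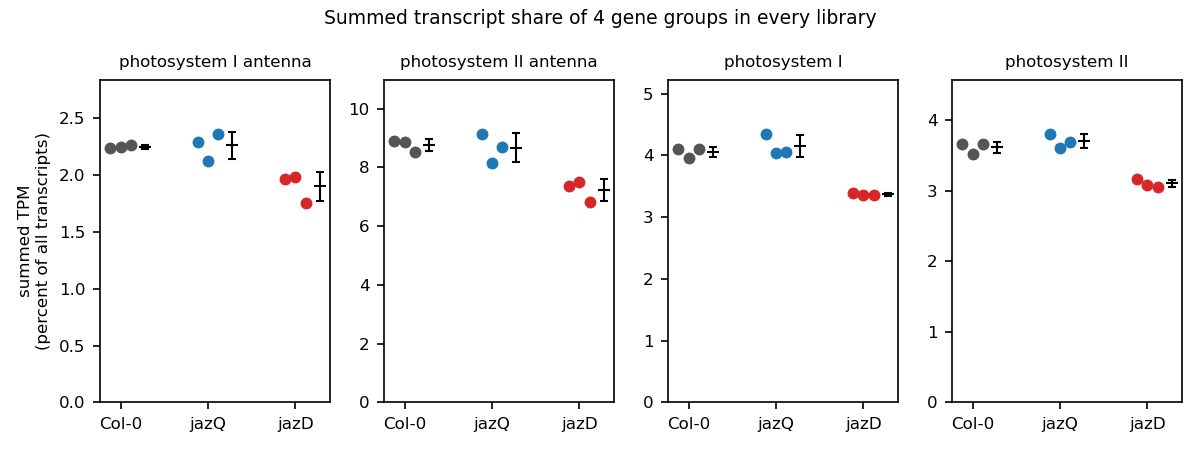
Summed TPM of the photosystem I antenna, the photosystem II antenna, photosystem I and photosystem II genes as a percent of all transcripts in the tables (vertical axes, from 0), 1 point per library, with the group mean and SD (n = 3) in black beside each group. In each panel the 3 jazD points lie below the wild-type and jazQ points, and jazD replicate 3 is the lowest point for both antenna groups.

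In jazD, 7 of 14 photosystem II antenna genes and 5 of 12 photosystem I genes were called lower, beside 12.5% of all genes, and 0 of 4 photosystem I antenna genes and 0 of 10 photosystem II genes were. At an unadjusted p under 0.05 in edgeR the last 2 groups gave 2 and 7 genes (beside 37.1% of all genes, in either direction), DESeq2 called 0 and 1 (beside 11.1% of all genes), limma-voom 0 and 1 (beside 12.3%), and with library totals alone 4 and 7 were called (beside 16.3%). Median log2 fold changes were -0.24 for the photosystem II antenna, -0.16 for the photosystem I antenna, -0.17 for photosystem I and -0.15 for photosystem II. No test of a difference between subsets was made.

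LHCB4.3 encodes a rarer form of the monomeric antenna protein that links photosystem II to its outer trimers. It was the lowest-expressed member, with 61.5 ± 3.99 TPM in wild type (SD, n = 3), where LHCB4.1 had 3364 ± 153 and LHCB4.2 had 2133 ± 96.7. Its CPM was 54.7, 48.7 and 53.7 in the wild-type libraries, 45.1, 35.5 and 47.8 in jazQ and 29.0, 23.7 and 28.8 in jazD. The 3 genotypes formed 3 groups without overlap, jazD lowest. In jazD the log2 fold change was -0.95 with a standard error of 0.11 (edgeR adjusted p = 7.3e-05), and it ran from -1.02 to -0.86 over the alternatives. LHCB4.1 and LHCB4.2 had log2 fold changes of -0.14 and -0.20 and were not called (edgeR adjusted p = 0.18 and 0.15). The share of LHCB4.3 in the summed TPM of the 3 LHCB4 genes was 1.11 ± 0.053% in wild type, 0.897 ± 0.095% in jazQ and 0.650 ± 0.106% in jazD (SD, n = 3).

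The coding sequence of LHCB4.3 is identical to that of LHCB4.1 at 70.1% and to that of LHCB4.2 at 72.8% of aligned bases, and LHCB4.1 and LHCB4.2 share 81.9%, so reads of LHCB4.3 are the easier to assign. The 250 bases before the gene start are shown for the 3 LHCB4 genes, where the rare copy fell and the others did not pass, and for LHCB2.3 and LHCB2.1, the copies with the strongest and the weakest fold change in a more abundant family, in which LHCB2.2 was called as well. They were read from the RefSeq assembly TAIR10.1, since the count tables carry no coordinates; the submitters' notes name TAIR10. LHCB4.3 lies at chr2:16745378-16745627, LHCB4.1 at chr5:208616-208865, LHCB4.2 at chr3:2717307-2717556 and LHCB2.3 at chr3:10255656-10255905, all on the plus strand, and LHCB2.1 at chr2:1824481-1824730 on the minus strand. Sequences run 5′ to 3′ along the gene, and capitals mark the G-box CACGTG, the I-box GATAAG, the CCAATC box and the TATA element TATAAA, each on either strand.
LHCB4.3: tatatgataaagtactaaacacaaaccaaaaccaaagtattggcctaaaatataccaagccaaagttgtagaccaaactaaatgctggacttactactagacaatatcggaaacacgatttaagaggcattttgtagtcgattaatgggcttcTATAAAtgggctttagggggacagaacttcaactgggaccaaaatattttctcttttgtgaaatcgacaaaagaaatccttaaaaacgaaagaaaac
LHCB4.1: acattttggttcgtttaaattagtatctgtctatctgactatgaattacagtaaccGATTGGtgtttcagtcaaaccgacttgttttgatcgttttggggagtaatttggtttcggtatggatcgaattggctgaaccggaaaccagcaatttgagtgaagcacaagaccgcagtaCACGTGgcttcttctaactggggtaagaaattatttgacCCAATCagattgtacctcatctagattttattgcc
LHCB4.2: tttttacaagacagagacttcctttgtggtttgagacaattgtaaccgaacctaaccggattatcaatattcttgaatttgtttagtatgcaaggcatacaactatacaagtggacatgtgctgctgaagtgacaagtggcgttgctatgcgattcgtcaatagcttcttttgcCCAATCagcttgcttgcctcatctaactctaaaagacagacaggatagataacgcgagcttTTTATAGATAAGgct
LHCB2.3: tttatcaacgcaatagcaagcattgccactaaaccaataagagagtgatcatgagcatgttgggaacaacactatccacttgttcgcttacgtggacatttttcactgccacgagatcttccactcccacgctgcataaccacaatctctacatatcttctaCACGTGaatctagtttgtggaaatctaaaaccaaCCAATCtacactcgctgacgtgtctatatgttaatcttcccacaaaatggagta
LHCB2.1: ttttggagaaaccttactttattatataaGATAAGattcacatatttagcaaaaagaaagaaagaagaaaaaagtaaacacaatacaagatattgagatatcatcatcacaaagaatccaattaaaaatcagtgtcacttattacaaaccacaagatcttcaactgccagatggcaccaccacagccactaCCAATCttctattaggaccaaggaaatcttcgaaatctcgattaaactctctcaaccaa
In these windows LHCB4.3 has 1 TATA element and none of the other motifs, LHCB4.1 has 2 CCAATC boxes (1 on the minus strand, read as GATTGG) and 1 G-box, and LHCB4.2 has 1 CCAATC box and, next to each other, 1 TATA element (read as TTTATA) and 1 I-box. LHCB2.3 has 1 G-box and 1 CCAATC box, and LHCB2.1 has 1 I-box and 1 CCAATC box.

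LHCB1 and LHCB2 encode the main proteins of the mobile antenna trimers, and phosphorylated LHCB2 takes part in the movement of antenna between the photosystems. The LHCB2.3 CPM was 1567, 1333 and 1272 in wild type, 2001, 1474 and 1557 in jazQ and 1017, 1006 and 813 in jazD. The jazD libraries were below all others, and the jazQ libraries overlapped wild type. LHCB2.3 fell by 0.56 in jazD on the log2 scale with a standard error of 0.14 (edgeR adjusted p = 0.015).

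LHCB2.2 (AT2G05070) fell by 0.32 in jazD (SE 0.10, edgeR adjusted p = 0.037), with CPM of 2873, 2726 and 2457 in wild type and 2296, 2231 and 1910.3 in jazD, which did not overlap. LHCB2.1 (AT2G05100) had a log2 fold change of -0.30 and just missed the threshold (edgeR adjusted p = 0.057). Because LHCB2.1 and LHCB2.2 share 91.8% of their coding bases, the counting could split reads between them wrongly. The sum of the LHCB2 copies, which is free of that split, was lower by 0.36 on the log2 scale (SE 0.11, edgeR adjusted p = 0.028). Within the family, LHCB2.3 took 23.5 ± 1.08% of the TPM in wild type, 27.4 ± 1.58% in jazQ and 20.6 ± 0.367% in jazD (SD, n = 3), and no 2 of the genotypes overlapped.

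Among the 5 LHCB1 copies, the pair on chromosome 2, LHCB1.4 and LHCB1.5, was called lower in jazD and the 3 on chromosome 1 were not, a difference that was not itself tested. LHCB1.4 CPM was 4436, 4097 and 3956 in wild type, 4412, 3405 and 4159 in jazQ and 3311, 3166 and 2716 in jazD. Every jazD library was below every other library, although jazQ replicate 2 came close. LHCB1.4 fell by 0.44 (SE 0.10, edgeR adjusted p = 0.0064) and its neighbour LHCB1.5 (AT2G34420) by 0.29 (SE 0.09, edgeR adjusted p = 0.034). LHCB1.1 (AT1G29920), with 8601, 8975 and 8317 CPM in wild type and 8398, 8917 and 8169 in jazD, overlapped and had a log2 fold change of -0.02, which turned to 0.01 without wild-type replicate 2 and without jazD replicate 3. LHCB1.2 and LHCB1.3, the last being the most abundant member at 22045 ± 968 TPM in wild type, had log2 fold changes of -0.22 and -0.13 and were not called (edgeR adjusted p = 0.056 and 0.29).

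Between wild type and jazD the share of a copy in the summed LHCB1 TPM went from 17.9 ± 0.298 to 19.9 ± 0.587% for LHCB1.1, from 10.12 ± 0.510 to 8.40 ± 0.528% for LHCB1.4 and from 14.5 ± 0.266 to 13.5 ± 0.489% for LHCB1.5 (SD, n = 3). The wild-type and jazD libraries did not overlap in any of these shares. The 3 copies on chromosome 1 share 95.7 to 96.4% of their coding bases and LHCB1.4 and LHCB1.5 share 92.5%, so values of single copies are uncertain. The LHCB1 sum had a log2 fold change of -0.17 and was not called (edgeR adjusted p = 0.15).

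**Figure D3:**
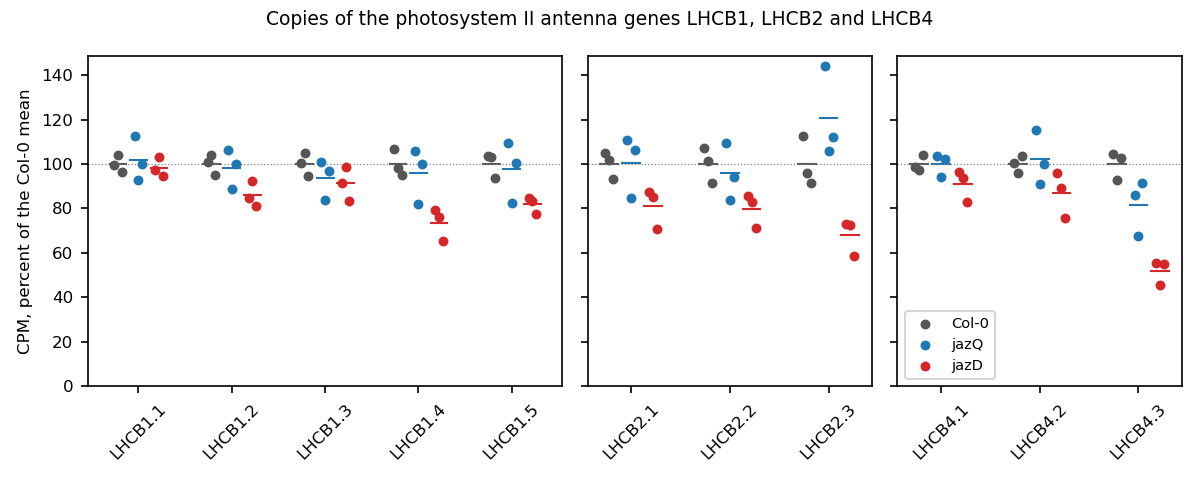
CPM of each LHCB1, LHCB2 and LHCB4 copy as a percent of its wild-type mean (vertical axis, from 0), 1 point per library and a line at the mean of each group, with Col-0 in grey, jazQ in blue and jazD in red. LHCB4.3 is lowest in jazD at 51.9% on average, LHCB1.1 stays near 100% at 98.4%, and the jazQ points of LHCB2.3 average 121%.

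The remaining photosystem II antenna genes are single copies. LHCB3 encodes the third trimer protein, which binds the trimers close to the core, and LHCB5 and LHCB6 encode the other monomeric linkers. LHCB5 (AT4G10340) CPM was 6116, 5904 and 6138 in wild type, 6392, 6287 and 6448 in jazQ and 5238, 5285 and 4698 in jazD, and LHCB5 fell by 0.25 (SE 0.06, edgeR adjusted p = 0.0084). LHCB3 (AT5G54270) CPM was 7796, 7566 and 7507 in wild type, 9208, 7958 and 8649 in jazQ and 6633, 6661 and 6656 in jazD. Its 3 groups did not overlap, with jazQ highest and jazD lowest, and LHCB3 fell by 0.20 in jazD (SE 0.06, edgeR adjusted p = 0.037). LHCB3 lies in a stretch of chromosome 5, from AT5G44490 to AT5G55790, in which 37.5% of 863 genes tested were called in jazD against 25.3% elsewhere, and 1.16% against 1.28% in jazQ. The ends of the stretch were set with values in view. Whether it carries sequence of another accession in jazD, and whether the asterisk on Col-0* refers to that, was not tested, nor was its part in the LHCB3 result. LHCB6 (AT1G15820) had a log2 fold change of -0.19 and was not called (edgeR adjusted p = 0.069).

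LHCA1 to LHCA4 encode the antenna belt on one side of photosystem I. Their log2 fold changes in jazD were -0.20, -0.12, -0.16 and -0.17, and none was called, with edgeR adjusted p from 0.11 to 0.21. LHCA4 (AT3G47470), the most abundant at 7882 ± 85.1 TPM in wild type (SD, n = 3), had 7594, 7727 and 7477 CPM in wild type and 6899, 7273 and 6161 in jazD. All 4 genes had every jazD library below every wild-type library, beside 21.2% of all genes. The spread was wider in jazD, where replicate 3 was the lowest library for all 4.

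Of the photosystem I subunits, PSAE1, PSAF, PSAG, PSAK and PSAO were called lower in jazD. PSAK and PSAG are membrane subunits that hold the antenna at either end of the belt. PSAK (AT1G30380) CPM was 1569, 1539 and 1508 in wild type, 1697, 1626 and 1765 in jazQ and 1344, 1334 and 1315 in jazD, so that jazQ lay above and jazD below wild type without overlap. PSAK fell by 0.21 in jazD (SE 0.05, edgeR adjusted p = 0.013) and PSAG (AT1G55670) by 0.24 (SE 0.07, edgeR adjusted p = 0.032), the latter from 2452, 2403 and 2406 CPM to 2062, 2090.2 and 2017.

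PSAO (AT1G08380) belongs to the side of photosystem I where mobile antenna docks. It fell by 0.22 (SE 0.06, edgeR adjusted p = 0.017), with CPM of 3521, 3425 and 3480 in wild type and 3004, 2983 and 2936 in jazD. Its partners there, PSAH1, PSAH2 and PSAL, had log2 fold changes of -0.16, -0.15 and -0.13 and were not called (edgeR adjusted p = 0.078, 0.083 and 0.20). PSAF (AT1G31330), which with PSAN serves the docking of plastocyanin, fell by 0.25 (SE 0.08, edgeR adjusted p = 0.036), from 4775, 4689 and 4387.5 CPM to 3745, 4160 and 3750. PSAN had a log2 fold change of -0.14 (edgeR adjusted p = 0.15).

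PSAD and PSAE form the ferredoxin docking side, each from 2 genes. PSAE1 (AT4G28750) CPM was 1324, 1233 and 1302 in wild type and 1168, 1098 and 1134 in jazD, and PSAE1 fell by 0.18 (SE 0.06, edgeR adjusted p = 0.042). PSAE2 (AT2G20260) CPM was 383, 382 and 406 in wild type and 413, 385 and 361 in jazD, which overlapped, and its log2 fold change of -0.01 turned to 0.02 without wild-type replicate 3 and 0.04 without jazD replicate 3. The share of PSAE2 in the summed PSAE TPM was 26.0 ± 0.810% in wild type and 28.3 ± 1.19% in jazD (SD, n = 3), without overlap. PSAD1 and PSAD2 had log2 fold changes of -0.23 and -0.13 and were not called (edgeR adjusted p = 0.058 and 0.37).

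None of the 10 photosystem II subunit genes was called in jazD by edgeR, beside 12.5% of all genes called lower. Of the 10, 9 had every jazD library below every wild-type library, beside 21.2% of all genes, with PSBY the exception. PSBO, PSBP and PSBQ proteins shield the manganese cluster that splits water. PSBO1 (AT5G66570) CPM was 4267, 4214 and 3929.5 in wild type and 3805, 3655 and 3367 in jazD, with a log2 fold change of -0.20 (SE 0.08, edgeR adjusted p = 0.073). PSBO2, PSBP1, PSBQ1 and PSBQ2 had log2 fold changes of -0.13, -0.11, -0.15 and -0.12. PSBS, the sensor of energy-dependent quenching, had -0.15, and PSBR, PSBW, PSBX and PSBY, small subunits, had -0.15, -0.15, -0.16 and -0.11. PSBR (AT1G79040) was the most abundant of the group at 7742 ± 233 TPM in wild type (SD, n = 3).

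When the copies of 8 families were summed before the fit, leaving 28 families and single genes, 8 were called lower in jazD than in wild type, beside 12.5% of all genes in that fit, and LHCB2 was the one summed family among them. All 28 were fitted below 0. The single genes called were LHCB3, LHCB4.3, LHCB5, PSAF, PSAG, PSAK and PSAO. The count was 2 without wild-type replicate 1, 4 without wild-type replicate 2, 5 without jazD replicate 2 and 4 without jazD replicate 3, beside 8.77, 9.92, 9.07 and 9.06% of all genes.

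In jazQ no member passed the test against wild type. In edgeR 0 of 40 were called lower, beside 0.412% of all genes, and 0 higher, beside 0.861%; 4 had an unadjusted p under 0.05 (10%, beside 12.3% of all genes), DESeq2 called 0 (beside 0.737% lower and 1.15% higher of all genes), and limma-voom called 0 (beside 0.376 and 0.845%). The median log2 fold change was 0.02, with 27 genes fitted above 0 and 13 below. All 3 jazQ libraries lay above wild type for 6 genes, beside 9% of all genes, and below it for 1, LHCB4.3, beside 8.31%. The 4 genes with an unadjusted p under 0.05 were LHCB3 (log2 fold change 0.17), PSAH2 (0.16), PSAK (0.14) and LHCB4.3 (-0.29), with edgeR adjusted p of 0.26, 0.28, 0.31 and 0.30.

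The jazQ libraries varied more among themselves than those of the other genotypes. Over the 40 genes the median coefficient of variation of CPM was 7.56% in jazQ, 4.09% in wild type and 5.23% in jazD, and in the photosystem II antenna it was 10.9, 5.23 and 8.15%. Replicate 2 of jazQ was the lowest of its group for 37 of the 40 genes, and replicate 1 the highest for 33. Replicate 2 also had the highest TPM of the 3 jazQ libraries for 7 of the 10 JAZ genes, whose transcripts are known to be induced by jasmonate, such as JAZ5 at 21.9 TPM where the others had 6.19 and 5.37. Its part in the lower member values was not tested. In jazD, replicate 3 was the lowest for 31 genes, among them 16 of the 18 antenna genes. Without jazQ replicate 2, 38 of 40 genes were fitted above wild type, and without jazQ replicate 1, 17 were, with 0 calls in either case. Few genes of any kind were called in those fits. Without jazQ replicate 2, 116 of 19584 were higher and 47 lower than wild type. Without jazQ replicate 1, 164 of 19600 were higher and 91 lower.

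Set against jazQ, jazD was lower for genes of both photosystems and of the photosystem II antenna. In edgeR 19 of 40 were called lower in jazD than in jazQ, beside 13.8% of all genes, and 0 higher, beside 15%. The calls fell on 6 of 14 photosystem II antenna genes, 7 of 12 photosystem I genes and 6 of 10 photosystem II genes, with 0 of 4 in the photosystem I antenna (3 at an unadjusted p under 0.05, beside 39.9% of all genes in either direction, 0 by DESeq2, beside 11.9%, and 1 by limma-voom, beside 13.6%). Libraries did not overlap for 22 genes, beside 21.9% of all genes, and the median log2 fold change was -0.21. The count was 30 without jazQ replicate 2 and 12 without jazD replicate 3, beside 10.3 and 10.7% of all genes, and 12 of the 19 calls held under every alternative tried. Of the other 7, the call of LHCB2.1, whose libraries overlapped, was lost under 11 of 20 alternatives, that of PSAH1 under 9, PSBW under 5, PSAF under 3, PSBS under 2, and LHCB1.4 and PSAN under 1 each.

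LHCB2.3 had the largest difference between the mutants, at -0.83 on the log2 scale (SE 0.14, edgeR adjusted p = 0.0018), ahead of LHCB4.3 at -0.66 (SE 0.11, edgeR adjusted p = 0.0011). LHCB1.4 (-0.38), LHCB3 (-0.37), PSAK (-0.35), LHCB5 (-0.33), PSAH2 (-0.31), LHCB2.1 (-0.31), PSAF (-0.29), PSAO (-0.28), PSAN (-0.25), PSAE1 (-0.25) and PSAH1 (-0.18) were also called. In photosystem II the called genes were PSBQ1 (-0.26), PSBS (-0.25), PSBX (-0.23), PSBQ2 (-0.22), PSBR (-0.21) and PSBW (-0.19). PSBQ1 CPM was 1434, 1337 and 1385 in jazQ and 1165, 1158 and 1144 in jazD, with no overlap. The comparisons of jazD with wild type and with jazQ share the jazD libraries, so their calls are not independent. Of the members, 9 were called in both, which is 75% of the 12 and 47.4% of the 19. The share of all genes called in both was not counted, so this overlap cannot be read as particular to the members. LHCB1.5, LHCB2.2 and PSAG were called against wild type alone.

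Upstream sequence was searched in the 250 bases before each gene start, on both strands, in RefSeq TAIR10.1. The CCAATC box was in 10 of 18 antenna windows (55.6%), 0 of 12 photosystem I windows and 1 of 10 photosystem II windows, beside 10.2% of the windows of 27443 protein-coding genes. The antenna genes with it include 4 of the LHCB2 and LHCB4 windows shown above, and it was absent from those of LHCA2, LHCB1.1, LHCB1.2, LHCB1.4, LHCB3, LHCB4.3, LHCB5 and LHCB6. These hold both the lowest log2 fold change of the antenna in jazD (LHCB4.3, -0.95) and the one nearest 0 (LHCB1.1, -0.02). The G-box was in 8 of 40 members (20%) beside 6.49% of all genes, the I-box in 22.5% beside 12.3%, and TATAAA in 42.5% beside 47.4%. The evening element AAATATCT was in 0 of 40 windows beside 4.79%. These matches describe letters in a window, and no test was made of them.

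Other genes of the light reactions were counted from 10 lists of pathway genes. Over all genes tested, 12.5% were called lower in jazD and 13.3% higher, and several lists lay near the lower share. Lower calls made up 11.1% of the further antenna and photosystem genes and 16.7% of the kinase, phosphatase and xanthophyll cycle genes. They made up 18.2% of electron transfer and 20% of assembly genes. Of 9 further antenna and photosystem genes, all 9 were fitted below 0 with a median log2 fold change of -0.16, and 1 was called, PSB28, a photosystem II assembly factor, at -0.17 (edgeR adjusted p = 0.033). LHCB7, an antenna relative, had -0.26 (edgeR adjusted p = 0.071). Of 8 early light-induced and one-helix proteins, relatives of the antenna proteins, 5 were called lower: OHP2 (-0.26), SEP2 (-0.42), ELIP2 (-0.80), OHP1 (-0.20) and LIL3.1 (-0.22). Electron transfer gave 2 of 11 lower, PETE2, a plastocyanin, at -0.31 (edgeR adjusted p = 0.0069) and PGRL1A, of cyclic electron flow, at -0.23 (edgeR adjusted p = 0.0079). ATP synthase gave 1 of 3, ATPC1 at -0.18 (edgeR adjusted p = 0.021), with ATPD at -0.19 not called. Leaving out single libraries ended the calls of PSB28 and ATPC1 under 5 alternatives each, LIL3.1 under 4, OHP1 under 3 and ELIP2 under 2.

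Among these 10 lists, the largest single change was in chlorophyll synthesis. PORA, a light-dependent protochlorophyllide reductase, had 32.1, 32.3 and 31.4 CPM in wild type, 25.6, 25.03 and 24.5 in jazQ and 6.16, 4.62 and 5.87 in jazD. The 3 groups did not overlap, and PORA fell by 2.52 on the log2 scale in jazD (SE 0.10, edgeR adjusted p = 6.0e-10). PORA lies in the same stretch of chromosome 5 as LHCB3, whose part in the result was not tested. PORB and PORC, the other 2 reductases of this kind, had log2 fold changes of 0.09 and -0.15 and were not called (edgeR adjusted p = 0.45 and 0.055).

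Of 21 chlorophyll synthesis genes, 7 were called lower in jazD (33.3%, beside 12.5% of all genes) and 0 higher (beside 13.3%). CHLH, the large subunit of magnesium chelatase, had 3050, 2696 and 2798 CPM in wild type and 2196, 2270.1 and 2066 in jazD and fell by 0.39 (SE 0.07, edgeR adjusted p = 0.00096). GUN4, the activator of that enzyme, fell by 0.51 (SE 0.13, edgeR adjusted p = 0.018), a call lost under 4 of 20 alternatives, each leaving out a library. CAO, which makes the chlorophyll b of the antenna, fell by 0.35, GGR, which makes the phytol tail, by 0.30, CRD1 by 0.34 and HEMC by 0.19, the last a call lost under 4 of 20 alternatives. HEMA1, the first committed enzyme, had a log2 fold change of -0.15 and was not called (edgeR adjusted p = 0.18).

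Chlorophyll breakdown moved the other way, with 4 of 6 genes called higher (beside 13.3% of all genes) and 1 lower (beside 12.5%). PPH, the pheophytinase, had 47.2, 48.4 and 52.3 CPM in wild type, 52.3, 58.1 and 55.3 in jazQ and 85.9, 86.4 and 90.6 in jazD. It rose by 0.83 in jazD on the log2 scale (SE 0.06, edgeR adjusted p = 6.9e-07). SGR1, which removes magnesium from chlorophyll, rose by 0.32, NYC1, which reduces chlorophyll b, by 0.44 and PAO, which opens the ring, by 0.20, whereas RCCR, the next enzyme, fell by 0.22. Of these, the PAO call was lost under 11 of 20 alternatives, that of RCCR under 9 and that of NYC1 under 4, while PPH and SGR1 were called under all 20.

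Among 14 regulators of photosynthesis genes, 5 were called lower (35.7%, beside 12.5% of all genes) and 0 higher (beside 13.3%). GLK2, a transcription activator of antenna and chlorophyll synthesis genes, had 174, 208 and 186 CPM in wild type, 185, 198 and 208 in jazQ and 127, 149 and 125 in jazD. It fell by 0.50 in jazD (SE 0.08, edgeR adjusted p = 0.00066), with no overlap. Its homologue GLK1 had a log2 fold change of 0.23 and was not called (edgeR adjusted p = 0.14). HY5, also in the list, had 0.51 and was not called (edgeR adjusted p = 0.11). All jazD libraries of HY5 lay above wild type, beside 21.4% of all genes. Of the 14 regulators, 4 were fitted above 0 and 10 below. GNC, a GATA factor that promotes greening, fell by 0.51 (SE 0.11, edgeR adjusted p = 0.0043). GLK2 (AT5G44190) lies before the first gene of the chromosome 5 stretch, AT5G44490, and GNC (AT5G56860) after the last, AT5G55790. Any part of that region in their results was not tested. The sigma factors of the plastid RNA polymerase SIG1, SIG2 and SIG6 fell by 0.23, 0.24 and 0.23. The SIG6 call was lost under 4 of 20 alternatives and that of SIG1 under 1, by leaving out a library.

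HCF173, which drives translation of a photosystem II core protein in the chloroplast, was the one of 5 assembly factors called, beside 12.5% of all genes called lower. HCF173 had 215, 212 and 193 CPM in wild type and 142, 136 and 123 in jazD. It fell by 0.63 (SE 0.07, edgeR adjusted p = 2.9e-05), while HCF101, an iron-sulphur factor of photosystem I, had -0.12 (edgeR adjusted p = 0.17). Of 6 kinase, phosphatase and xanthophyll cycle genes, 1 was called lower, beside 12.5% of all genes. It was ZEP, the zeaxanthin epoxidase, at -0.39 (edgeR adjusted p = 0.00067), and STN7, the antenna kinase, had -0.13 (edgeR adjusted p = 0.073). Of 5 antenna protein targeting genes, 0 were called in edgeR, beside 12.5% of all genes called lower. In edgeR 2 had an unadjusted p under 0.05 (40%, beside 37.1% of all genes). DESeq2 called 0 (beside 11.1% of all genes called lower) and limma-voom 1 (beside 12.3%). CPSRP43 and LTD, both of which escort antenna proteins, had log2 fold changes of -0.20 and -0.14 (edgeR adjusted p = 0.054 and 0.082).

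**Figure D4:**
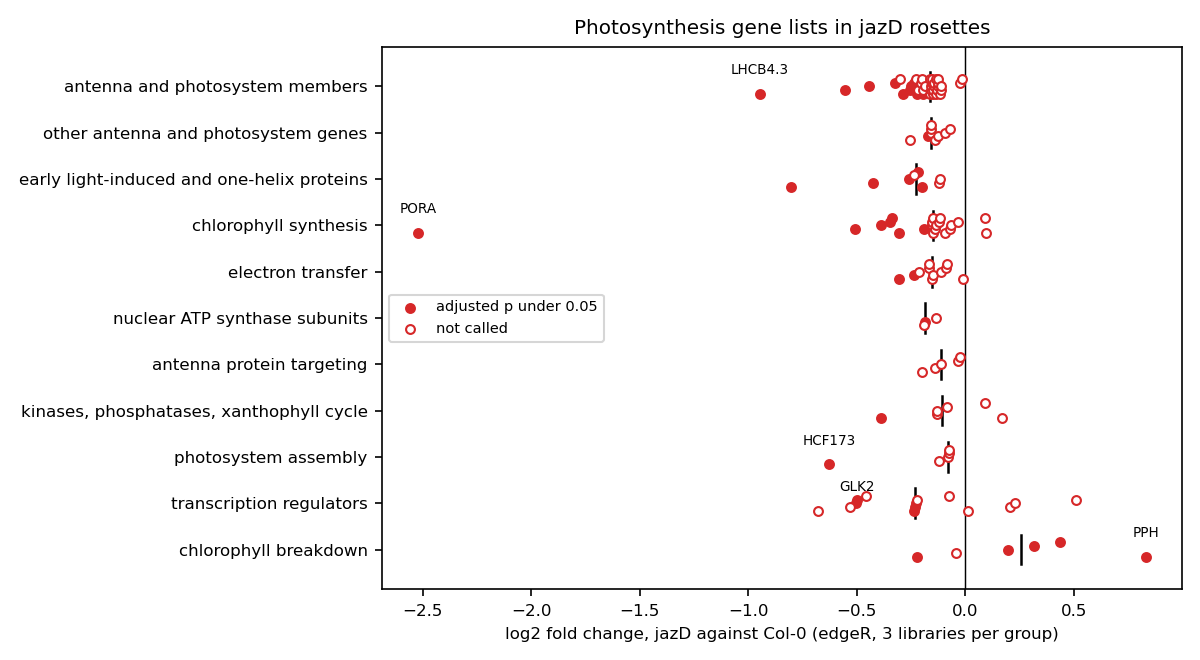
Log2 fold change in jazD against wild type (horizontal axis; edgeR, 3 libraries per group) for the 40 members and 10 lists of photosynthesis genes, 1 point per gene, filled where the adjusted p was under 0.05, with the list's median as a black line. Medians lie below 0 in all rows except chlorophyll breakdown at 0.26; PORA stands alone at -2.52 and PPH is the highest point at 0.83.

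All markers of ageing leaves and 2 of 3 trichome markers were called higher in jazD, while those of other leaf cells were not called or were split. Over all genes tested, 13.3% were called higher and 12.5% lower. All 3 markers of senescing leaves were called higher in jazD, SAG12 by 5.26, SAG13 by 1.56 and NAP by 1.51 on the log2 scale (edgeR adjusted p = 0.00021, 0.00195 and 6.2e-07), and their summed TPM was 52.1 to 74.5 in wild type, 38.3 to 58.9 in jazQ and 159 to 205 in jazD. The size of the SAG12 change is uncertain, since its lowest library had 0 counts. Its standard error was 0.54, and its log2 fold change ran from 3.39 to 6.02 over the 19 alternatives that tested it, called in each. SAG12 also lies in the stretch of chromosome 5, as does KAT1, the guard cell marker called lower in jazD. Guard cell markers had 1 of 4 called higher and 1 lower in jazD, with summed TPM of 34.9 to 41.5 in wild type and 32.8 to 38.3 in jazD. Trichome markers had 2 of 3 called higher, with 8.84 to 10.3 in wild type, 12.6 to 15.1 in jazQ and 11.0 to 13.0 in jazD. Phloem and epidermis markers had 0 of 2 called each, and their summed TPM ran from 106 to 121 and from 168 to 189 in wild type and from 97.6 to 113 and from 155 to 164 in jazD. The part of these shifts in the lower antenna and photosystem values was not tested.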

How the data were processed

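RNA-seq libraries of 3 genotypes with 3 replicates each were used. Per the file headers, the authors deposited expected counts per gene and TPM per gene from RSEM 1.2.25; the submitters' processing notes name TAIR10. The sources used here name no aligner, strand setting or annotation version. Expected counts were rounded, filtered (filterByExpr, minimum count 10, 19405 genes kept), TMM-scaled and tested with edgeR 4.0.16 (R 4.3.3) in 1 quasi-likelihood fit of all 9 libraries, with Benjamini-Hochberg adjustment over all genes tested. The fit was tried on simulated data whose planted changes were larger than those of most members, so that trial does not cover changes as small as theirs. Standard errors given for edgeR are the absolute log2 fold change divided by the square root of the test's F statistic. Alternatives used DESeq2 1.42.0 and limma 3.58.1. Upstream windows and coding sequences came from RefSeq TAIR10.1. Samples were grouped by title. Members and lists were chosen with earlier results of these data known. All members were accounted for; from each list, the 2 genes with the smallest p in jazD against wild type were named, with GLK1, GLK2, HEMA1, GUN4, CHLH and the POR genes; further list genes were named after their values were seen. Gene counts carry no molecular identifiers.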

Additional observations from a re-analysis of the deposited data

How the results depend on the processing

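The members' median change was -10.8%, and the number of calls moved with scaling and with single libraries. Of the 12 calls against wild type, 8 were lost by leaving out a library and 0 under any other alternative, and 12 of the 19 against jazQ were kept throughout. Members called lower in jazD than in wild type numbered 12, and 22 with upper-quartile scaling, 33 with library totals alone, 35 in limma on log2(TPM + 1), 35 in limma on log2(TPM + 0.1), and 4 to 16 on leaving out each library in turn. Against jazQ the 19 became 30, 33, 35 and 35 under those scalings, and 12 to 30 on leaving out a library. Over all genes, lower calls against jazQ rose from 2678 of 19405 to 3299, 3173, 3370 (of 19606) and 3368. They ran from 1942 to 2722 on leaving out a library. Family sums went from 8 to 26 with library totals alone. They ran from 2 to 9 on leaving out a library, an alternative chosen after seeing the data. Against jazQ the sums went from 15 to 25, and ran from 10 to 21. Over all genes in those fits, lower calls went from 2425 of 19393 to 3162, and from 2680 to 3164 against jazQ. Leaving out a library gave 1717 to 2551 lower calls against wild type and 1941 to 2724 against jazQ. Over all 19405 genes, jazD had 2580 higher and 2426 lower calls against wild type. These became 2367 and 2765 with upper-quartile scaling and 2175 and 3169 with library totals alone. In limma, of 19606 genes, they were 1926 and 3359 on log2(TPM + 1) and 1899 and 3371 on log2(TPM + 0.1). Lower calls ran from 1717 to 2555 on leaving out a library. Read in CPM in place of TPM, jazD shares were 88.1% of wild type for all members, 87.6% for the antenna, 87.2% for the photosystem II antenna, 87.6% for photosystem I and 90.4% for photosystem II. On leaving out a library, the log2 fold change of LHCB1.1 ran from -0.059 to 0.011 and that of PSAE2 from -0.065 to 0.038.

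With a replicate block, members called lower in jazD numbered 19 against wild type (beside 15.6% of all genes) and 29 against jazQ (beside 16.9%), and in jazQ 1 member (LHCB4.3, beside 1.32%) and 1 family or single gene passed; lower calls rose over all genes too, from 12.5, 13.8 and 0.412%. Replicate numbers were not taken as pairs in the main fit. To compare libraries by number, log CPM of each was taken as the difference from its genotype mean, over all genes tested. These differences cancel out within a genotype, so the correlations for same and unlike numbers depend on each other. Correlations of the differences between same-numbered libraries were all positive, from 0.015 to 0.306 between wild type and jazQ. They ran from 0.046 to 0.165 between wild type and jazD and from 0.088 to 0.222 between jazQ and jazD. Those of unlike numbers ran from -0.245 to 0.088. Whether a number marks a shared batch was not tested. By these differences, every library correlated best with its own number between wild type and jazD and between jazQ and jazD, not between wild type and jazQ. The block changes the residual degrees of freedom, and the cause of the added calls was not tested.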
